A study of Mus musculus with 8 samples.

Results

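Bile acid synthesis and its control was followed through every probe annotated to any of 10 genes: Cyp7a1, Cyp8b1, Cyp27a1, Cyp7b1, Hsd3b7, Akr1d1, Slc27a5, Slc10a1, Nr1h4 and Nr0b2. They carried 13 of the 25697 probes on the array, and 11 of these probes, from 8 genes, were bright enough to be tested. The 8 liver RNA samples came from male mice on a C57BL/6 background, all aged 13 weeks. In 4 samples the genotype was wild type, and in the other 4 Bgn, which encodes the matrix proteoglycan biglycan, was knocked out. Each sample was read on 1 Illumina bead array. The labels call the samples of a genotype replicates without saying that each is a separate animal, so the p-values measure the spread between these samples, which may be technical. The part of Bgn removed, the cells in which it is lost, the animals' feeding and the hour of collection are not given in the sources used here.

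Bile acids are made from cholesterol in hepatocytes. The classic route opens with Cyp7a1, whose enzyme sets its rate, and Cyp8b1 further along decides how much cholic acid is formed. An alternative route opens with Cyp27a1 in mitochondria and continues through Cyp7b1. The receptor FXR, encoded by Nr1h4, senses bile acids and in mice induces the repressor SHP, encoded by Nr0b2, which lowers transcription of Cyp7a1 and Cyp8b1. Cyp7a1 is also known for its daily rhythm, which clock output factors such as Dbp shape.

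None of the 8 tested genes passed the test between genotypes. Cyp8b1 came closest, at 0.833 of its wild type level, and Cyp7a1 was the gene whose arrays disagreed most, with a single knockout array far above the other 7. Nr0b2 was not detected on any array and Akr1d1 on only 3 of 8, so neither was tested. Among related genes, the clock factors Dbp, Tef and Nr1d1 fell, while no further enzyme, transporter or nuclear receptor of the pathway passed.

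Bgn checked the labels. Its deposited signal lay between 2901 and 4944 intensity units on wild type arrays and between 169 and 203.5 on knockout arrays, a log2 change of -5.86 (SE 0.14; limma adjusted p = 2.38e-10). The median deposited signal was 141.3 to 163.9 units per array, 11352 to 11910 probes were detected, and the number of arrays limits the precision. Hepatocyte markers, of which 6 of 7 were on the array, had a summed background-corrected, quantile-normalized signal of 97657 to 98819 in wild type and 98101 to 103779 in knockout livers. Quantile normalization makes the brightest values alike on all arrays, so these sums say little about the hepatocyte share. The other marker sums are on the same scale. Of 4 cholangiocyte genes on the array, 2 were bright enough to be tested, while Krt19 and Cftr were not detected on any array. Of 4 ileum genes 1, Fabp6, was tested, while Fgf15, Slc10a2 and Vil1 were not detected on any array. The ileum markers summed to 163.0 on wild type replicate 1 and to 100.1 to 125.8 on the other arrays. None of the 3 kidney markers was detected on any array. Of 3 pancreas markers, Prss2 and Cpa1 were not detected on any array, so the pancreas sum was in effect the signal of Cela1 alone. It was 1819 and 1806 on wild type replicates 1 and 2 and 1801 on knockout replicate 1, which were also the 3 arrays highest in Cyp7a1. The sum was 825 and 567 on wild type replicates 3 and 4 and 1144 to 1550 on the other knockout arrays. Its part in the Cyp7a1 values was not tested. Skeletal muscle transcripts, summed over 6 markers, reached 24401 on wild type replicate 4, 33363 on knockout replicate 2 and 6955 on knockout replicate 1, while the remaining arrays had 138.7 to 179.6. Values that moved by over 1.5 times when the 2 highest of these arrays were left out are given both ways. Knockout replicate 1 was left out only on its own, and no fit without all 3 was made. Kupffer cell markers summed to 1258 to 2075 in wild type and 911 to 1304 in knockout livers, with 0 of 4 tested markers passing, and their part in the results was not tested. In bulk liver RNA, fewer cells of a type and less RNA per cell cannot be told apart.

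Cyp7a1, the rate-setting hydroxylase, had deposited signals of 2657, 2299, 1179 and 1582 in wild type replicates 1 to 4 and of 7567, 1571, 1591 and 1127 in knockout replicates 1 to 4. Knockout replicate 1 stood above every other array, while the other 3 knockout values fell inside or just below the wild type range, so the groups overlapped. The knockout mean was 2964 ± 3076 units and the wild type mean 1929 ± 671 (SD, n = 4 each). On the log2 scale, after background correction and quantile normalization, the change was 0.14 (SE 0.65; limma adjusted p = 0.948), and 0.22 without the 2 arrays highest in the muscle gene Tnnt3. Its 95% interval ran from 0.377 to 3.23 times the wild type level, so a 2-fold difference in either direction lay inside it. Without knockout replicate 1 the log2 change was -0.44 (limma adjusted p = 0.714). It was -0.10 without wild type replicate 3 and -0.0043 without wild type replicate 4, so no direction can be given.

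**Figure D1:**
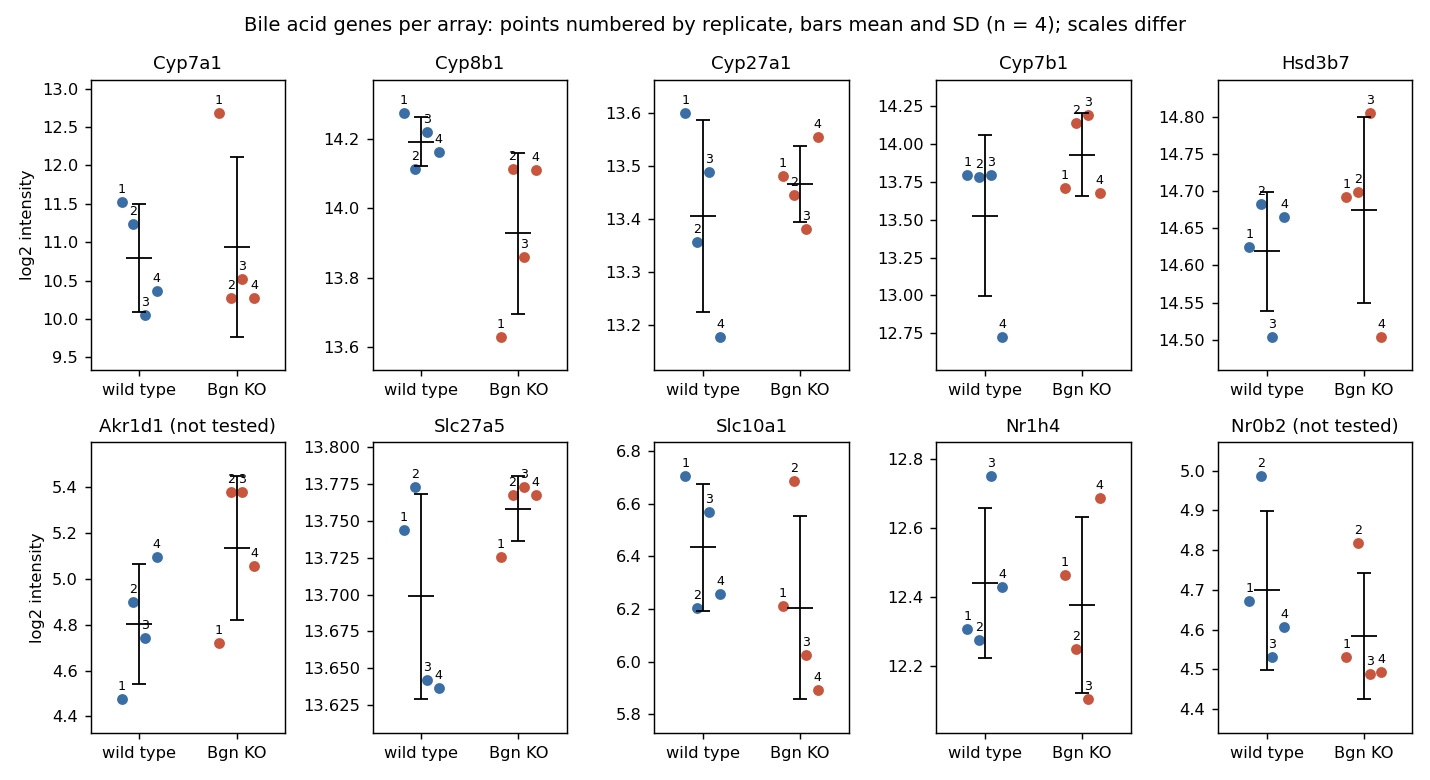
Background-corrected, quantile-normalized log2 intensity (vertical axis, a separate scale in each panel) of the 10 bile acid genes on 4 wild type and 4 Bgn knockout arrays, with points numbered by replicate and bars giving mean and SD. The brightest probe of each gene is drawn. Cyp7a1 on knockout replicate 1 (12.68) and Cyp7b1 on wild type replicate 4 (12.73) stand away from their groups.

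Cyp8b1, the sterol hydroxylase of the cholic acid branch, read 19225, 17295, 20037 and 19106 units in wild type replicates 1 to 4. In knockout replicates 1 to 4 it read 14149, 18772, 15206 and 15943. As log2 intensities, 3 of the 4 knockout arrays lay below every wild type array, and knockout replicate 2 was level with wild type replicate 2, the lowest of its group, at 14.11. The log2 change was -0.26 (SE 0.10; unadjusted p = 0.0251, limma adjusted p = 0.301). An exact two-sided permutation test of the log2 values gave p = 0.0571, where the 70 label assignments allow no p below 0.0286. The 95% interval, 0.713 to 0.973 of the wild type level, excluded 1 before adjustment. Across the alternative settings the log2 change stayed between -0.34 and -0.17 and the adjusted p between 0.182 and 0.542. The RefSeq promoter window of Cyp8b1 is shown because this gene came nearest to the threshold under the main setting. It covers 250 bases before the transcription start and 50 from it on. The window lies on the minus strand of GRCm38.p6 at chr9:121916256-121916555, with 47.3% G and C.

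Cyp8b1: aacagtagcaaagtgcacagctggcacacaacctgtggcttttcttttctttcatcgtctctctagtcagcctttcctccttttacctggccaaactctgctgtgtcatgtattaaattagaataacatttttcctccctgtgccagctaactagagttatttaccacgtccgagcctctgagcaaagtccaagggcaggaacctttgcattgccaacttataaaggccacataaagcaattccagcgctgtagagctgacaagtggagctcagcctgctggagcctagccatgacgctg

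Hsd3b7, a dehydrogenase of both routes, was covered by 2 probes. On the brighter probe, wild type arrays read 25130, 27073, 25295 and 26680 units and knockout arrays 26685, 26435, 27583 and 21108. As log2 intensities, 3 knockout arrays lay above every wild type array and knockout replicate 4 was level with the lowest, at 14.50. The log2 change was 0.056 (SE 0.075; limma adjusted p = 0.794), and it was -0.12 with median scaling, -0.061 with cyclic loess and -0.0069 in the authors' normalized values. The second probe had 15154 ± 995 units in wild type and 17422 ± 1874 in knockout livers (SD, n = 4 each), a log2 change of 0.18 (SE 0.087; limma adjusted p = 0.400). As log2 intensities, all 4 knockout arrays lay above the wild type median on that probe, and 2 of them above every wild type array. Both probes overlapped between genotypes, and the interval of the brighter one ended at 0.929 and 1.16 times wild type.

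Akr1d1, the reductase that shapes the steroid ring of bile acids, stayed near background. Its deposited signal was 125.1 to 161.9 units in wild type and 145.1 to 179.5 in knockout livers, and it was detected on 1 wild type array and 2 knockout arrays. It was therefore not tested, and its groups overlapped. Whether its probe reports the transcript was not tested.

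On the alternative route, Cyp27a1, the mitochondrial sterol hydroxylase, had 3 probes that agreed within their errors. The brightest read 11331, 10216, 12122 and 9780 units in wild type and 13113, 12021, 10613 and 10795 in knockout livers. Its log2 change was 0.061 (SE 0.094), and the other probes gave 0.020 (SE 0.081) and -0.0071 (SE 0.12), with limma adjusted p of 0.825, 0.940 and 0.987. The log2 intensities of the knockout arrays lay within the wild type range on all 3 probes. The interval of the brightest probe reached from 0.905 to 1.20 times the wild type level. Which of the 3 lay above or below 0 changed when single arrays were left out, and without the 2 arrays highest in Tnnt3 they had -0.0070, -0.021 and -0.15.

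Cyp7b1, the oxysterol hydroxylase that follows Cyp27a1, read 13024, 13667, 14481 and 7312 units in wild type replicates 1 to 4. The knockout replicates read 14921, 19141, 18335 and 11710. Wild type replicate 4 was the lowest of all 8, and as log2 intensities 2 knockout arrays, replicates 2 and 3, exceeded every wild type array. The log2 change was 0.40 (SE 0.27; limma adjusted p = 0.567), with an interval from 0.856 to 2.04 times wild type. Without wild type replicate 4, which also carried muscle transcripts, it was 0.14 (limma adjusted p = 0.790). Without both that array and knockout replicate 2, the arrays with the highest signal of the muscle gene Tnnt3, it was 0.068 (limma adjusted p = 0.971), a setting chosen after the data were seen.

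**Figure D2:**
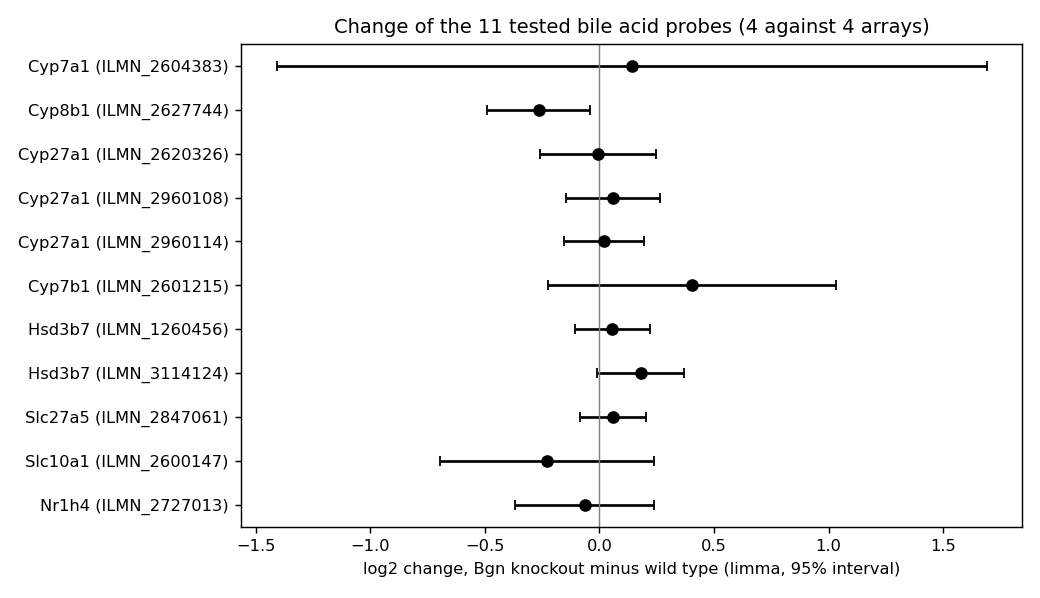
Log2 change of each of the 11 tested bile acid probes (horizontal axis, Bgn knockout minus wild type), with 95% intervals from limma over 4 against 4 arrays. The interval of Cyp7a1 runs from -1.41 to 1.69, while that of Slc27a5 runs from -0.084 to 0.20.

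Slc27a5, the ligase that prepares bile acids for conjugation, varied least. Its deposited signal was 12477, 13578, 13185 and 13444 units in wild type and 15072, 15275, 14260 and 12434 in knockout livers. After normalization the log2 values lay between 13.64 and 13.77 on all 8 arrays, and the groups overlapped. The log2 change was 0.060 (SE 0.066; limma adjusted p = 0.744), and the interval reached from 0.943 to 1.15 times wild type. Without the 2 arrays highest in Tnnt3 the log2 change was 0.036.

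Slc10a1 encodes the sodium-dependent transporter that takes bile acids up from blood into hepatocytes. Its single probe read 202.6, 182.6, 216.1 and 212.9 units in wild type and 222.7, 254.2, 185.4 and 165.8 in knockout livers, detected on all 8 arrays with a detection p of at most 0.00627. The log2 change was -0.23 (SE 0.21; limma adjusted p = 0.688), with 2 knockout arrays below every wild type array as log2 intensities. At so low a signal the size rests on the background correction, without which the change was -0.086. It was -0.39 without knockout replicate 2, -0.13 without knockout replicate 4, -0.14 without wild type replicate 1 and -0.45 without the 2 arrays highest in Tnnt3. For a gene known for its expression in hepatocytes this signal is close to background, and whether the probe reports the transcript was not tested.

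Nr1h4, the bile acid receptor gene, read 4565, 4727, 7159 and 5950 units in wild type and 6670, 5683, 4590 and 5736 in knockout livers. As log2 intensities, 2 knockout arrays lay below every wild type array and the other 2 inside the wild type range. Its log2 change was -0.064 (SE 0.14; limma adjusted p = 0.886), with an interval from 0.775 to 1.18 times wild type, and it was 0.039 without wild type replicate 3 and 0.027 without knockout replicate 3. Without the 2 arrays highest in Tnnt3 it was -0.027.

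Nr0b2, the repressor that FXR induces, was not above background on any array. Deposited signals were 133.7, 146.0, 135.8 and 143.1 units in wild type and 144.7, 157.7, 133.5 and 127.0 in knockout livers, with a detection p of at least 0.0952. No change can be given for it at this signal, and whether its probe reports the transcript was not tested. Its place on chromosome 4 is between tested genes of which Sytl1 (log2 change -2.93, SE 0.26; limma adjusted p = 6.02e-05) and Gpn2 (-2.23, SE 0.18; limma adjusted p = 3.03e-05) fell in the knockout. Around Cyp7a1, on the same chromosome, Plekhf2 fell on 1 of its 2 probes (-1.19, SE 0.17; limma adjusted p = 0.00341) and had -0.11 on the second (limma adjusted p = 0.702). Over all 10 bile acid genes, 3 of the 100 nearest tested genes, 5 to each side, had a changed probe, against 1.38% of all 8105 tested genes. The order of genes was taken from GRCm38.p6.

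The Nr0b2 promoter window is shown because it held the only motif match among the 7 bile acid genes searched. It lies on the plus strand of GRCm38.p6 at chr4:133553126-133553425, and capitals mark an E-box, the letters bound by clock activators, which begins 195 bases before the transcription start.

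Nr0b2: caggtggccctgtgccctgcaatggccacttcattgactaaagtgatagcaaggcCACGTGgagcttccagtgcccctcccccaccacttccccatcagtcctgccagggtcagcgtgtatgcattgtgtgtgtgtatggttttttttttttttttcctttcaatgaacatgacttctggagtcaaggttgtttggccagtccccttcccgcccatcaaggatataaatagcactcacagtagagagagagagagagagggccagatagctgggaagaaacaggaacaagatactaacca

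Windows of 300 bases were matched for 7 of the 10 genes, 8 windows in all, since Slc10a1 has 2. Cyp7a1, Cyp7b1 and Slc27a5 had no window and were not searched. On both strands, 0 of the 8 held TTACGTAA or TTATGTAA, the D-box of Dbp and Tef, present in 1.06% of all 32851 windows. TCAAGGTCA or TCAAGGCCA, letters of the nuclear receptor LRH-1, occurred in 0 of the 8 and in 1.01% of all windows. CACGTG, the E-box, occurred in the Nr0b2 window and in 7.15% of all windows. The FXR inverted repeat and the HNF4A direct repeat, each built of 2 AGGTCA copies 1 base apart, occurred in 0 of the 8 and in 0.00913% and 0.0396% of all windows. The LRH-1 letters with a T before the final CA share AGGTCA with both repeats, and a missing match says only that these letters are not in the window.

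Across the 11 tested probes, 0 passed in limma at an adjusted p under 0.05, against 1.10% of the 11494 probes tested (127 probes). At an unadjusted p under 0.05 there was 1 of 11, Cyp8b1, against 13.3% of all tested probes. The genotypes did not overlap for 0 of the 11, against 8.07% of all. With the brightest probe of each gene, 5 genes had values above 0 and 3 below 0. Their median log2 change was 0.058, beside -0.0030 over all tested genes, and the median size of change, regardless of sign, was 0.10 beside 0.16. For 5 of the 8 genes, Cyp8b1, Cyp27a1, Hsd3b7, Slc27a5 and Nr1h4, the 95% interval lay within a change of 1.5-fold either way. For Cyp7a1, Cyp7b1 and Slc10a1 it did not. Quantile normalization makes the brightest values alike on all arrays, and whether this narrowed the intervals of bright genes was not tested.

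The genes differed widely in how far samples of a single genotype lay apart. The residual SD of Cyp7a1 within groups was 0.96 log2 units, above that of 99.5% of the 1000 tested probes nearest to it in level, and the SD of Cyp7b1, 0.42, was above that of 96.7%. Single arrays carried much of both: the SD of Cyp7a1 was 0.55 without knockout replicate 1, and that of Cyp7b1 0.21 without wild type replicate 4. At the other end, Slc27a5 had 0.052, above 3.0% of the probes of like level, and Cyp8b1 had 0.17, above 64.9%, or 0.11 without knockout replicate 1. Over all tested probes the median was 0.24. Within wild type livers alone, the deposited Cyp7a1 signal had a coefficient of variation of 34.8% and the brighter Hsd3b7 probe 3.75%.

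**Figure D3:**
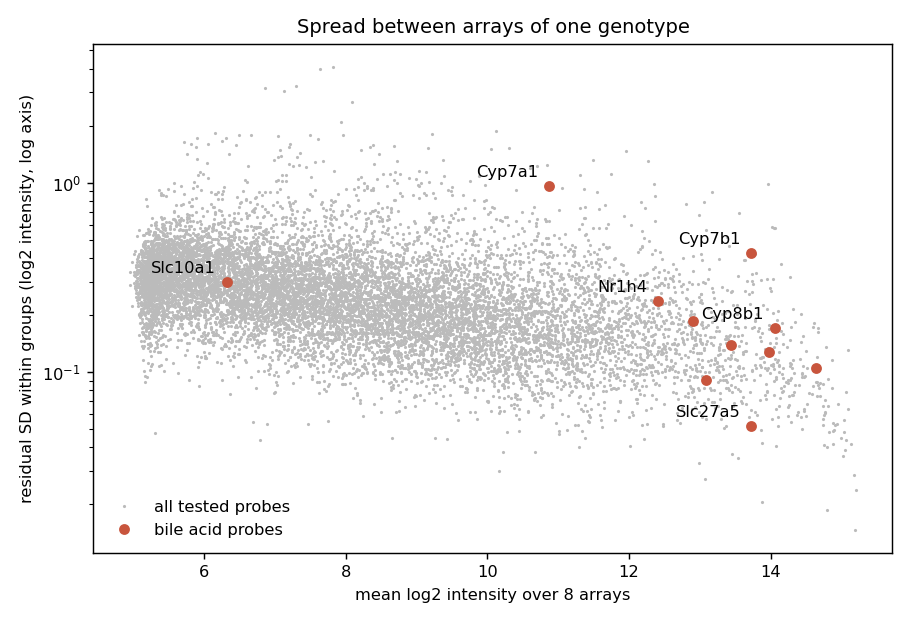
Residual SD within genotypes (vertical, log axis, log2 intensity units) against mean log2 intensity (horizontal) for all 11494 tested probes in grey and the 11 bile acid probes in red. Cyp7a1 (0.96) and Cyp7b1 (0.42) lie high among probes of like level, and Slc27a5 (0.052) lies low.

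Of 6 relations between the genes chosen from the pathway, 3 could be computed, since Nr0b2 was not above background. With group means removed, Cyp7a1 and Cyp8b1 ran in opposite directions over the 8 arrays (Pearson r = -0.73, exact within-group permutation p = 0.0955, adjusted 0.287 over 3 relations; Spearman rho = -0.64, exact p = 0.129, adjusted 0.386). Knockout replicate 1 held both the highest Cyp7a1 and the lowest Cyp8b1, and without it r was -0.083. Group means were taken anew when a single array was left out. Leaving out the 2 arrays farthest from the median of Cyp7a1, wild type replicate 1 and knockout replicate 1, gave r = -0.64. That value kept the group means of all 8 arrays, so it cannot be set directly against -0.083. Within the wild type arrays alone r was 0.12 and within the knockout arrays -0.90. Without wild type replicate 1 alone, r was -0.89 (exact permutation p, adjusted, 0.0208), so the size of r turned on which of these arrays were included.

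**Figure D4:**
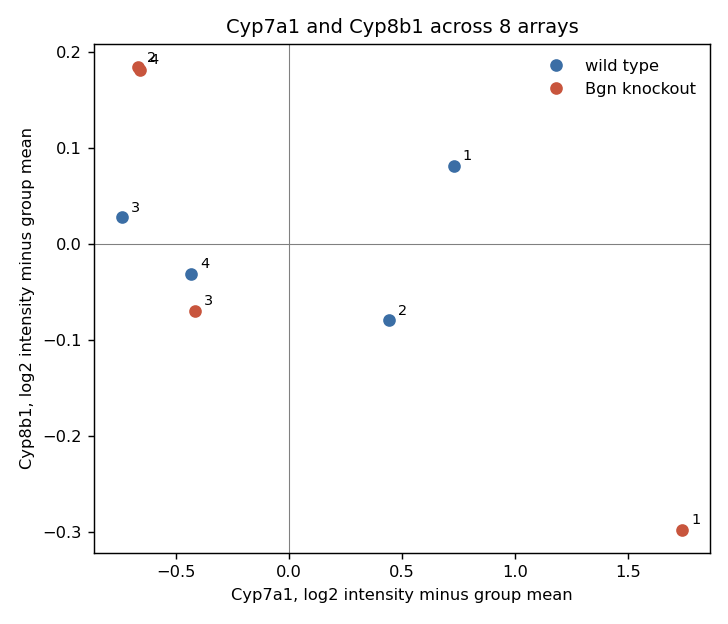
Log2 intensity of Cyp7a1 (horizontal) and Cyp8b1 (vertical) on each array after removal of its group mean, numbered by replicate. Knockout replicate 1 lies alone at lower right, and r was -0.083 without it, with group means taken anew. Without it and wild type replicate 1 r was -0.64, with the group means of all arrays kept.

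Cyp27a1 and Cyp7b1, consecutive enzymes, had r = 0.55 (exact within-group permutation p = 0.403, adjusted 0.604; Spearman rho = 0.38, exact p = 0.438, adjusted 0.656). Without the 2 arrays farthest from the median of Cyp27a1, wild type replicates 1 and 4, r was -0.51, with the group means of all arrays kept. With group means taken anew, it was 0.49 without wild type replicate 1 alone and -0.50 without wild type replicate 4 alone. The sign thus rests on wild type replicate 4, an array with muscle transcripts. Nr1h4 and Slc10a1 had r = -0.15 (exact within-group permutation p = 0.766, also after adjustment, and Spearman rho = -0.048, exact p = 0.948). Without wild type replicate 3 and knockout replicate 4, with the group means of all arrays kept, r was 0.053.

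The genes whose array-to-array pattern was most like that of Cyp7a1, out of 8104 others and with group means removed, were Stx4a (r = 0.97, Spearman rho = 0.93), Rita1 (r = 0.96, rho = 0.74) and Celsr1 (r = 0.95, rho = 0.88) over the 8 arrays. All 3 were highest on knockout replicate 1, and without it r was 0.91, 0.87 and 0.84. These are the highest of many values and carry no p.

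Among 15 further enzymes of synthesis and conjugation, 13 were on the array and 10 were tested. None passed in either direction, 3 of the 10 had an unadjusted p under 0.05 in limma beside 13.3% of all tested probes, and the median log2 change was 0.043. Baat, which joins bile acids to taurine or glycine, had 0.37 (SE 0.12; limma adjusted p = 0.20). Cyp2c70, the mouse enzyme of the muricholic acids, had 0.68 (SE 0.27; limma adjusted p = 0.329) and was lowest on wild type replicate 4. Without the 2 arrays highest in Tnnt3 that value was 0.37. Cyp39a1, an oxysterol hydroxylase, had -0.56 (SE 0.22; limma adjusted p = 0.303), and -0.16 without background correction.

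Of 14 transporters of bile acids and bile lipids, 13 were on the array and 11 were tested. None passed in limma, and the median log2 change was 0.095. The unadjusted limma p was under 0.05 for 1 of the 11, beside 13.3% of all tested probes. Abcc2, the canalicular exporter of conjugated organic anions, had -0.76 (SE 0.26; unadjusted p = 0.0156, limma adjusted p = 0.250) on its brighter probe and -0.67 (SE 0.23) on its second. The brighter probe read 11.27, 10.06, 11.25 and 10.45 as log2 intensity in wild type replicates 1 to 4 and 9.84 to 10.17 in knockout livers. Without wild type replicate 2, the lowest of its group, Abcc2 passed (log2 change -0.99, limma adjusted p = 0.0456). Abcb4, the phospholipid exporter, had -0.22 (SE 0.13), and Atp8b1, a phospholipid flippase of the canaliculus, had 0.25 (SE 0.14), with limma adjusted p of 0.491 and 0.483. Without the 2 arrays highest in Tnnt3 they had -0.13 and 0.14.

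Regulators numbered 18, with 16 on the array and 13 tested, and again none passed, with 3 of the 13 at an unadjusted p under 0.05 in limma, beside 13.3% of all tested probes, and a median log2 change of -0.045. Mafg, a repressor of bile acid genes that FXR induces in mice, had -0.50 (SE 0.15; limma adjusted p = 0.178). As log2 intensities its genotypes did not overlap, as for 8.07% of all tested probes, but the gap was small. Its highest knockout array was at 10.376 and its lowest wild type array at 10.378, and the deposited signals of the genotypes overlapped. Ppargc1a, a coactivator of fasting genes, had -0.78 (SE 0.27; limma adjusted p = 0.242), with -0.41 without background correction and -0.45 without the 2 arrays highest in Tnnt3. Nr1h3, the oxysterol receptor that induces Cyp7a1 in mice, had -0.26 (SE 0.11; limma adjusted p = 0.351) on its brighter probe and 0.19 (SE 0.29) on its second. Without the 2 arrays highest in Tnnt3 the brighter Nr1h3 probe had -0.16.

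Clock factors known to act on Cyp7a1 were the exception, with 3 of 6 tested genes lower and 0 higher, beside 1.10% of all tested probes passing. Their median log2 change was -0.81, beside -0.0030 over all tested genes. This list was drawn up with the fall of Dbp and Nr1d1 in these arrays known, so its count is no independent evidence. The hour of collection is not given, so its part in the clock factor values cannot be told apart from that of genotype. Dbp, an activator of Cyp7a1 through D-box letters in rodents, read 10.27 to 11.19 as log2 intensity in wild type and 7.15 to 7.59 in knockout livers (log2 change -3.53, SE 0.20; limma adjusted p = 8.01e-07). Tef, its close relative, fell by 1.31 on the log2 scale (SE 0.16; limma adjusted p = 0.00177). The repressor Nr1d1 had a log2 change of -1.66 (SE 0.30; limma adjusted p = 0.0325), which missed the threshold when dim probes were kept (0.0531) or without any 1 of 6 arrays, wild type replicates 1 to 4 and knockout replicates 1 and 4 (0.0680 to 0.0991). Its second probe had -1.27 (SE 0.45; limma adjusted p = 0.282), and there knockout replicate 3 (8.05 as log2 intensity) lay above wild type replicate 4 (7.91). Nfil3, a repressor at the same D-box letters, had 0.59 (SE 0.15; limma adjusted p = 0.104), and it passed with median scaling (0.0495) and with array weights (0.0410). Bhlhe40 had -0.31 (SE 0.28) and Rora 0.17 (SE 0.14), both short of the threshold (limma adjusted p = 0.680 and 0.653), and -0.55 and 0.046 without the 2 arrays highest in Tnnt3. Cyp7a1 in the 3 knockout livers other than replicate 1 was at 10.27 to 10.52 as log2 intensity. These values lay within the wild type range of 10.06 to 11.52 and below its median. The log2 change of Cyp7a1 was 0.14 on all arrays and -0.44 without knockout replicate 1 (limma adjusted p = 0.948 and 0.714). Whether Cyp7a1 followed the clock factors was not tested.

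**Figure D5:**
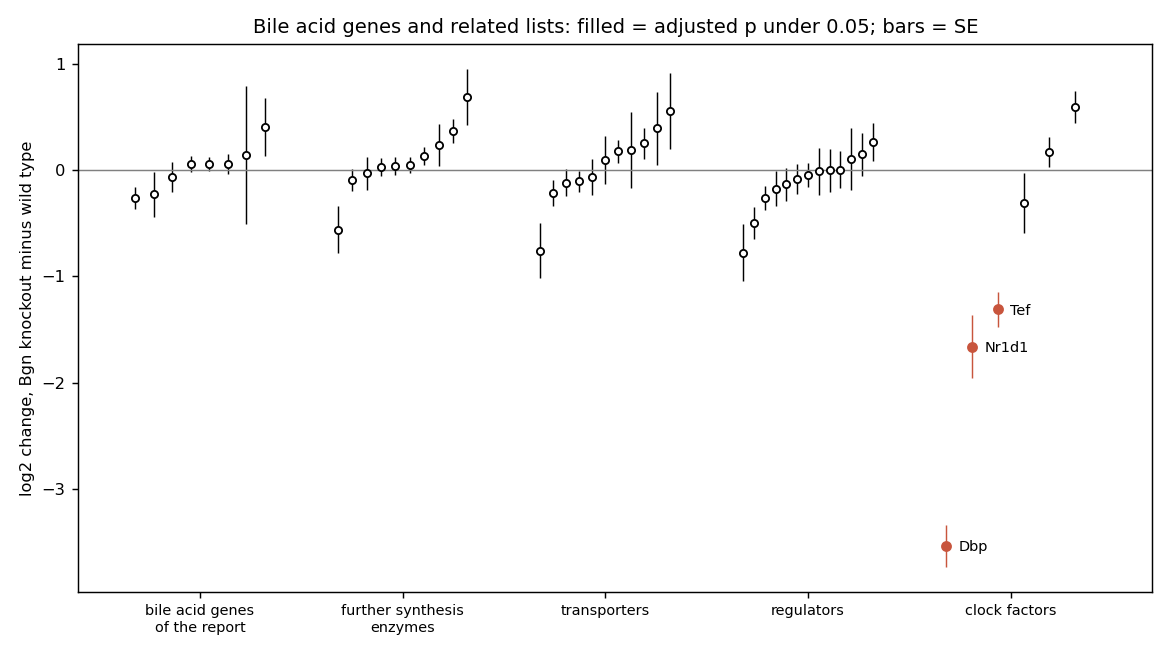
Log2 change (vertical, Bgn knockout minus wild type; bars give SE) of the brightest tested probe of each gene, for 8 bile acid genes and the 4 related lists, sorted within each list. Filled red points, with an adjusted p under 0.05, are Dbp, Nr1d1 and Tef.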

How the data were processed

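Liver RNA samples, 4 from wild type and 4 from Bgn knockout mice, were biotin-labelled and hybridised to Illumina bead arrays, per the labels' protocols. The deposited unnormalized table gives an average intensity per probe, on a linear scale and without background subtraction (lowest value 109.5). It also gives a detection p-value per probe and array, per the file headers. The second deposited table holds intensity values normalized by the authors. Of their method, the submitters' processing notes give only the tool names lumi 2.10.0 and R 2.15.0. Columns were matched to samples by their description letters.

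With limma 3.58.1 in R 4.3.3, neqc took the background from the detection p-values, corrected by normexp (offset 16), quantile-normalized and took log2. Probes with a detection p under 0.05 on at least 4 arrays were kept, 11494 in all. The fit used lmFit and eBayes with trend and robust variance, no covariates, and Benjamini-Hochberg adjustment over all kept probes at 0.05. The code was tested on simulated data. The brightest tested probe stands for a gene in counts. GEO's platform annotation named 1 gene for 23978 probes and none for 1719. Promoter windows are RefSeq's, build GRCm38.p6. Figures were drawn with matplotlib 3.10.9.

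Named are the 10 genes with every probe, and from each list the changed genes and up to 3 with the smallest p. The genes, lists, tests and alternative settings were chosen with earlier results of these data known.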

Additional observations from a re-analysis of the deposited data

Results flagged for a closer look

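In a group of 4 arrays, the highest or lowest value is given here when it stood far from the rest by Dixon's test at its 95% level. Of 54 groups of the named genes, 4 met this, against 2.7 expected by chance. Values are log2 intensities unless units are named. Cyp7a1 read 12.68 on Bgn knockout replicate 1, with the other knockout arrays at 10.27 to 10.52. On that same array Bhlhe40 read 9.14 (others 9.64 to 9.71) and Slc27a5 read 13.73 (others 13.77). The deposited Slc27a5 signal there, 15072 units, lay inside the range of the other knockout arrays, 12434 to 15275 units. Cyp7b1 read 12.73 on wild type replicate 4, with the others at 13.78 to 13.80. Muscle transcripts were raised on both arrays. They were highest on knockout replicate 2, where Cyp7a1 read 10.27 and Cyp7b1 14.14. The part of muscle transcripts in these values was not tested.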

How the results depend on the processing

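The count of 0 bile acid genes past the threshold was the same under all 10 planned settings run on 8 arrays, without each array in turn and without both arrays highest in Tnnt3, a setting chosen after the data were seen. Over all probes, 127 passed, 197 with array weights, 64 with the replicate block, 59 to 121 when single arrays were left out (62, 67, 81, 59 and 68 without wild type replicates 1 and 3 and knockout replicates 1, 2 and 3), and 48 without both Tnnt3-high arrays. The replicate numbers do not pair the samples (correlations of deviations 0.020, -0.10, -0.21 and -0.11), and the replicate block changed no call among the bile acid genes and ended that of Nr1d1 (limma adjusted p = 0.124). Of 209 values of bile acid probes under alternatives, 18 changed sign and 0 crossed the threshold. With median scaling, Hsd3b7 (ILMN_1260456) had -0.12 and Cyp27a1 (ILMN_2960114) -0.0065, and the r of Nr1h4 with Slc10a1 was 0.023. The same Hsd3b7 probe had -0.061 with cyclic loess and -0.0069 in the authors' values. Without both Tnnt3-high arrays, 2 Cyp27a1 probes had -0.0070 (ILMN_2960108) and -0.021 (ILMN_2960114). When single arrays were left out, Cyp7a1 ranged from -0.44 to 0.38 and Nr1h4 from -0.17 to 0.039. The Cyp27a1 probes ranged from -0.11 to 0.076 (ILMN_2620326), from -0.016 to 0.13 (ILMN_2960108) and from -0.024 to 0.062 (ILMN_2960114). The r of Cyp7a1 with Cyp8b1 ranged from -0.89 to -0.083, of Cyp27a1 with Cyp7b1 from -0.50 to 0.69 and of Nr1h4 with Slc10a1 from -0.38 to 0.22. The cause of these shifts was not tested. Of 284 values of the related named genes, 3 came to pass, 8 no longer passed and 0 changed sign. No fit with the chip as a term was possible because chips are not named in the column headers. Signal over background limits Akr1d1, Nr0b2 and Slc10a1.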
